A study of Homo sapiens with 6 samples.

Results

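Type I interferon-induced genes are the transcripts that cells raise when interferon alpha or beta, or viral RNA and DNA, is sensed. The 49 genes described here were taken by their gene names from a table of 20263 genes, and all 49 were present and passed the filter on low counts. Poly(A)-selected RNA was measured in THP-1, a human monocytic cell line established from an acute myeloid leukaemia. The labels give 3 libraries of cells with a short hairpin RNA against GOT1 (shGOT1, genotype GOT1 knockdown, titled T-91) and 3 of cells with a control hairpin (shNC, genotype wt, titled T-NC). No interferon, drug or time point is named for either group, and no second hairpin against GOT1, the cytosolic aspartate aminotransferase. An effect of losing GOT1, an effect of the hairpin itself and any other difference between the cells of the groups therefore cannot be told apart.

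Type I interferons bind a receptor of 2 chains, IFNAR1 and IFNAR2, whose kinases TYK2 and JAK1 phosphorylate STAT2 and other transcription factors of its family. These join IRF9 to form a complex that binds the interferon-stimulated response element (ISRE) in the promoters of the induced genes. The products degrade or sequester foreign RNA, block entry and release of viruses, tag proteins with the ubiquitin-like ISG15, and raise or restrain the same pathway. Monocytic cells express many of these genes at a low level without added interferon.

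The knockdown was visible in every library. GOT1 was at 3.27, 2.87 and 3.33 TPM (the authors' transcript level scaled to gene length and depth) in shGOT1 and at 15.3, 16.7 and 16.3 TPM in shNC. The total count per library ranged from 26226977 to 39144890. Summed TPM of 8 monocyte and macrophage markers was 792 to 856 in shGOT1 and 1278 to 1288 in shNC, with LYZ, CSF1R and CD14 among the 4 that fell and CD33 and FCGR1A higher. Without LYZ, left out after its values were seen, the other 7 summed to 726 to 772 in shGOT1 and 720.0 to 745 in shNC, so the lower sum rested on LYZ. Of 5 T cell markers CD3E, CD3G and CD2 had no count in any library and the summed TPM was at most 0.205. The defining markers MS4A1 (B cell), NCR1 and KLRD1 (NK cell), CLEC4C (plasmacytoid dendritic cell), and EPCAM, COL1A2 and DCN (epithelial cell and fibroblast) were at 0 as well. The other markers of these lists, with summed TPM in shGOT1 and shNC, gave 17.6 to 21.3 and 10.5 to 11.6 for B cells, 30.4 to 43.0 and 19 to 26.5 for NK cells, 57.5 to 61.6 and 47.5 to 49.1 for plasmacytoid dendritic cells, and 5.41 to 5.64 and 3.21 to 3.59 for epithelial cells and fibroblasts. Marker levels differed between the groups in both directions, and their part in the results was not tested. In the epithelial cell and fibroblast list KRT8 and COL1A1 rose while KRT18 fell. In bulk RNA, fewer cells with a transcript and less of it per cell cannot be told apart.

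The promoters were searched for interferon elements. The genes were listed as interferon-induced, so a high share with an ISRE is not independent of that choice. RefSeq promoter windows (GRCh38.p14, 250 bases before to 50 bases after the start) were found for 40 of the 49 genes. The ISRE core, searched as GAAANNGAAA on both strands, was present in 24 of the 40 windows and in 1255 of all 35116 RefSeq windows (3.57%). The gamma-activated site (GAS), an element known from interferon gamma targets, was searched as TTCNNNGAA and was present in 10 of the 40 windows and in 2689 of all (7.66%). Some matches overlap. Of 42 ISRE core matches, 10 overlap another ISRE core match, and 4 of 11 GAS matches overlap an ISRE core match. Stretches of 6 genes that lie wholly upstream of the RefSeq start are shown 5′ to 3′ on the gene's strand. Each ISRE core match is in capitals. By the coordinates of the deposited table, the stretches of ISG15 and IFI27 lie inside the gene. Those of IFIT1 and IFIT3 reach past its start. IFIT1 and IFIT3 are shown for their rises, BST2 as the most abundant of the genes, ISG15 and IFI6 for the fall of the genes around them, and IFI27 for its own fall.
IFIT1 (chr10:89392482-89392554, plus strand): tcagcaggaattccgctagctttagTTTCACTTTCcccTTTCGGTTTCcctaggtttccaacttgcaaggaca
IFIT3 (chr10:89327816-89327909, plus strand): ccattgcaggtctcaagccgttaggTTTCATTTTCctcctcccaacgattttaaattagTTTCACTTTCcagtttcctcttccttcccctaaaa
BST2 (chr19:17405720-17405785, minus strand): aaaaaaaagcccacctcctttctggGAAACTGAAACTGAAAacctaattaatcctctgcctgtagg
ISG15 (chr1:1013359-1013424, plus strand): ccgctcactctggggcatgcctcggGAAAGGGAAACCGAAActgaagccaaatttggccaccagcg
IFI6 (chr1:27672251-27672373, minus strand): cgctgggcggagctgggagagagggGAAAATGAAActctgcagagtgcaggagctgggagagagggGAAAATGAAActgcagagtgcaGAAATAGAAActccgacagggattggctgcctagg
IFI27 (chr14:94110603-94110675, plus strand): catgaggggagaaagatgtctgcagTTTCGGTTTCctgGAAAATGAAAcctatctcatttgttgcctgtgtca

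The comparison of shGOT1 with shNC asks how the interferon-induced genes stand in GOT1 knockdown cells relative to the control hairpin. In the shGOT1 libraries 33 of the 49 genes rose and 3 fell, while 13 did not pass the test. Counts were tested with the quasi-likelihood method of edgeR at a Benjamini-Hochberg adjusted p under 0.05 over all 13735 genes tested, and this call took 21.9% of all genes tested as higher, 22.8% as lower and 44.6% in either direction. The genes were called higher in 67.3% of cases and lower in 6.12%. These genes and the other lists below were chosen with earlier results of these data known. The shares called are therefore not independent of that choice. The median log2 fold change of the 49 genes (shGOT1 over shNC) was 0.42, beside 0.00 over all genes tested. Most of the changes were modest, and 6 genes, or 12.2%, were called and at least 2-fold higher, where 3.87% of all genes tested were. At least 2-fold lower were 0 of the 49 genes, where 3.20% of all genes tested were.

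The TPM values of the groups did not overlap for 39 of the 49 genes with shGOT1 higher (79.6%, against 36.4% of all genes tested) and for STAT2 and IFI27 with shNC higher (4.08% against 18.8%). The TPM of all 49 genes together summed to 4148, 4051 and 4150 in the shGOT1 libraries and to 3123, 2968 and 2923 in the shNC libraries. The median deviation of a library from its group mean over the 49 genes was between -0.02 and 0.00 on the log2(CPM + 1) scale. On the TPM scale the log2 ratios ran higher than in the count fit by a median of 0.10, and the median of all genes tested was itself 0.09 on log2(TPM + 1).

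**Figure D1:**
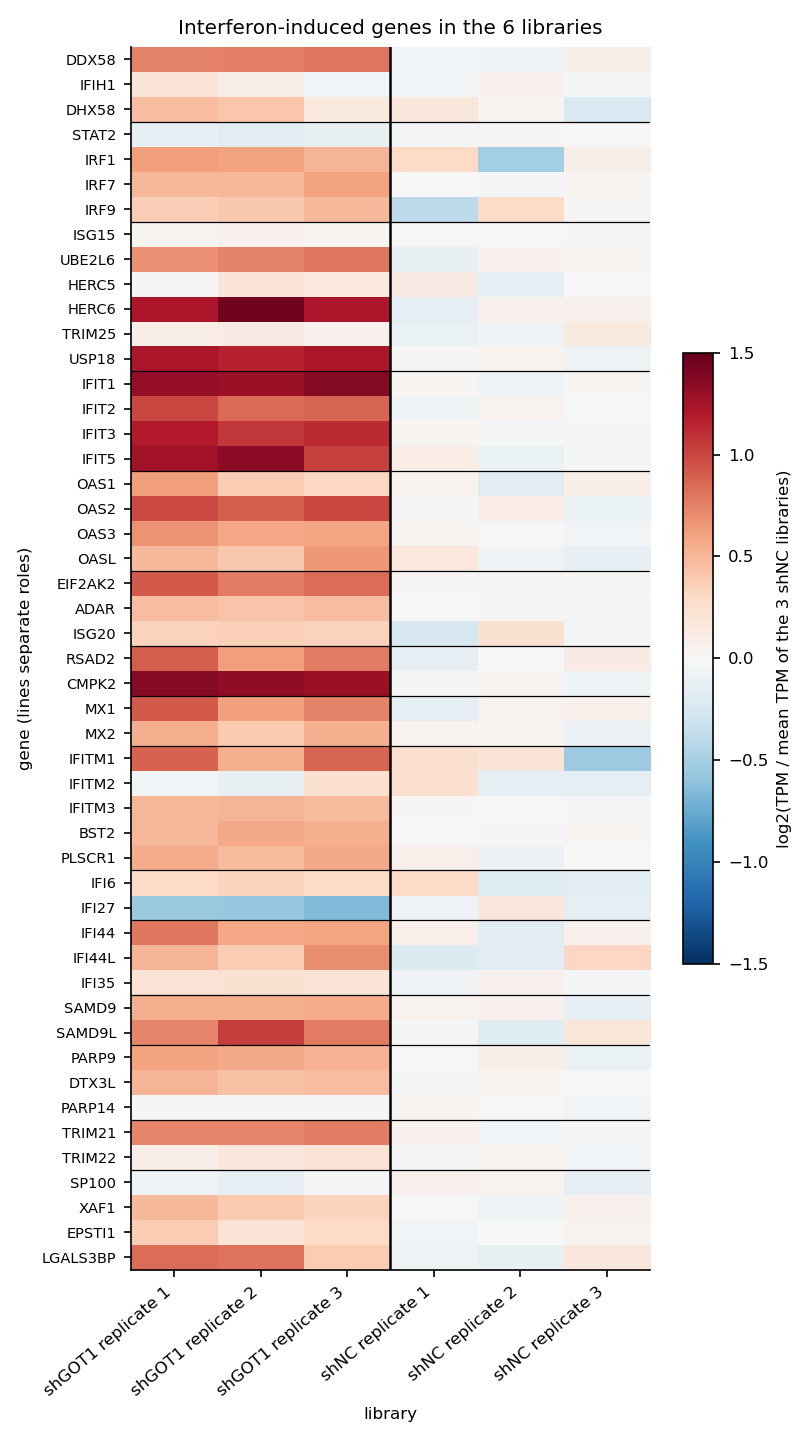
TPM of the 49 interferon-induced genes in each library, as log2 of the ratio to the mean of the 3 shNC libraries (colour, red higher and blue lower), with genes in rows grouped by role. IFIT1, IFIT3, IFIT5, CMPK2, USP18 and HERC6 are deep red in all 3 shGOT1 libraries, while IFI27 is blue there and ISG15 and PARP14 are near white.

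All 4 IFIT genes, whose products bind foreign RNA ends and block its translation, rose. IFIT1 (ENSG00000185745, chromosome 10, 89392546 to 89406486, plus strand) was at 69.6, 68.4 and 72.7 TPM in shGOT1 and at 28.6, 26.8 and 28.4 TPM in shNC. Every shGOT1 library was above every shNC library by a wide margin, and the fitted rise was 2.35-fold (log2 fold change 1.24, SE 0.0438, edgeR adjusted p = 1.13e-05). IFIT3, which stabilises IFIT1 on RNA, was at 95.2, 86.7 and 90.6 TPM against 43.0, 40.9 and 41.2 TPM (2.02-fold, SE 0.0445, edgeR adjusted p = 2.25e-05). IFIT2 was at 37.1, 33.3 and 33.9 against 17.7, 19.1 and 18.6 TPM (0.81), and IFIT5, the least abundant of them, at 5.95, 6.30 and 5.05 against 2.68, 2.32 and 2.45 TPM (1.11). The groups overlapped for none of the 4 genes. IFIT1, IFIT2 and IFIT3 share their intervals with LIPA in the table, so reads could be split between them, while IFIT5 overlaps no other gene.

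CMPK2, a mitochondrial nucleotide kinase, rose as much as IFIT1. It was at 75.7, 73.6 and 71.3 TPM in shGOT1 and at 29.6, 30.3 and 28.1 TPM in shNC (log2 fold change 1.23, SE 0.0445, edgeR adjusted p = 1.17e-05). RSAD2, which encodes viperin and makes a chain-terminating nucleotide from the product of CMPK2, lies next to it on chromosome 2 in the opposite direction. RSAD2 was at 17, 14.05 and 15.6 against 8.31, 9.07 and 9.85 TPM (log2 fold change 0.67, edgeR adjusted p = 0.000289). Both genes were higher in all 3 shGOT1 libraries. Neither RefSeq window held a match to GAAANNGAAA, but the RSAD2 window holds GAAACGAAA, a closer spacing that this pattern does not find. The CMPK2 window (6866586 to 6866885) does not reach the start of CMPK2 in the table, at 6865819.

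The 4 genes of the oligoadenylate synthetase family, whose products make the 2′-5′-linked activator of RNase L on sensing double-stranded RNA (OASL lacks that activity), rose as well. OAS2 (ENSG00000111335, chromosome 12, 112978395 to 113011723, plus strand) was at 76.9, 72.0 and 77.7 TPM in shGOT1 and at 38.3, 41.9 and 36.2 TPM in shNC (log2 fold change 0.85, SE 0.0614, edgeR adjusted p = 0.000143). Its neighbours rose less, OAS1 by 0.58 and OAS3 by 0.51 on the log2 scale. OASL was at 21.3, 20.04 and 23.9 against 16.98, 14.6 and 14.0 TPM (0.42, edgeR adjusted p = 0.0331). The OASL call was lost without any 1 of 5 libraries (adjusted p = 0.0600 to 0.102, all but shNC replicate 1) and with the replicate block (0.0506).

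EIF2AK2, the kinase PKR that stops translation on sensing double-stranded RNA, was at 28.1, 25.4 and 26.6 TPM in shGOT1 and at 15.0, 14.6 and 15.0 TPM in shNC (log2 fold change 0.80, edgeR adjusted p = 4.18e-05). It overlaps GPATCH11 in the table. ADAR, which edits adenosines in double-stranded RNA, rose by less, from 105 ± 1.58 to 145 ± 2.498 TPM (SD, n = 3 per group; 0.35, edgeR adjusted p = 8.41e-05). The exonuclease gene ISG20 was at 18.6, 18.8 and 18.7 against 12.4, 17.2 and 14.4 TPM and did not pass (0.14, edgeR adjusted p = 0.449). The GTPase genes MX1 and MX2, whose products trap viral nucleocapsids, rose, MX1 from 39.2 ± 3.05 to 66.5 ± 6.97 TPM (0.70) and MX2 from 41.3 ± 2.17 to 58.2 ± 3.34 TPM (0.34), with no overlap of the groups.

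Of the cytosolic RNA sensors DDX58 and DHX58 rose and IFIH1 did not pass. DDX58, which encodes RIG-I, was at 17.8, 18.0 and 18.6 TPM in shGOT1 and at 10.4, 10.3 and 11.3 TPM in shNC (log2 fold change 0.66, SE 0.0498, edgeR adjusted p = 0.000166). DHX58, the gene of the regulator LGP2, was at 35.1, 34.0 and 28.2 against 28.7, 26.0 and 21.8 TPM, so that the lowest shGOT1 library lay below the highest shNC library. Its log2 fold change of 0.27 (edgeR adjusted p = 0.0204) no longer passed without shNC replicate 1 (0.0609) or shNC replicate 3 (0.0618), nor with limma on any TPM or FPKM scale (0.0765 to 0.198). IFIH1, the gene of MDA5, was at 25.4, 23.8 and 21.7 against 21.7, 23.4 and 21.8 TPM (-0.03, edgeR adjusted p = 0.683). On the log2(TPM + 1) scale its difference was 0.08, so the sign depends on the scale.

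The transcription factors of the pathway moved in different directions. IRF7, which amplifies interferon production, was at 91.8, 91.9 and 99.0 TPM in shGOT1 and at 65.2, 63.8 and 66.7 TPM in shNC (log2 fold change 0.41, SE 0.0383, edgeR adjusted p = 0.000389). STAT2 (ENSG00000170581, chromosome 12, 56342710 to 56360126, minus strand) fell, with 82.7, 80.0 and 82.9 TPM against 88.5, 90.7 and 90.1 TPM (-0.25, SE 0.0264, edgeR adjusted p = 0.000612). All 3 shGOT1 libraries were below all 3 shNC libraries, by a small amount. IRF9, the DNA-binding partner of the STAT complex, was at 21.9, 22.5 and 23.7 against 12.9, 20.8 and 17.2 TPM. Its shNC libraries were widely spread and it did not pass (0.24, SE 0.214, edgeR adjusted p = 0.399), though it did without shNC replicate 2 (0.51, edgeR adjusted p = 0.0317).

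IRF1, a factor that also responds to interferon gamma, was at 46.1, 45.4 and 42.5 TPM in shGOT1 and at 36.7, 21.0 and 31.8 TPM in shNC. Its count fit gave a log2 fold change of 0.24 (SE 0.0494, edgeR adjusted p = 0.00892), while the log2 ratio of mean TPM was 0.58. IRF1 and LGALS3BP were the only members of the 49 for which these values were more than 0.25 apart. With limma IRF1 passed on log2(TPM + 5) (adjusted p = 0.0482) and missed the threshold on log2(TPM + 1) (0.0502), log2(TPM + 0.1) (0.0509), log2(FPKM + 1) (0.0631) and, with TPM rescaled by median of ratios, 0.0899. IRF1 overlaps C5orf56 in the table, and IRF9 overlaps an unnamed gene.

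The ISG15 system was split. ISG15, a ubiquitin-like protein that is attached to other proteins, was already abundant in shNC and did not pass, with 212, 215 and 210.4 TPM in shGOT1 and 205, 205 and 209 TPM in shNC (log2 fold change -0.06, SE 0.0311, edgeR adjusted p = 0.160; 0.04 on log2(TPM + 1), where the TPM of the groups did not overlap). UBE2L6, the conjugating enzyme of ISG15, rose by 0.59 on the log2 scale, from 123 ± 7.64 to 205 ± 7.74 TPM (edgeR adjusted p = 7.76e-05). USP18 (ENSG00000184979, chromosome 22, 18149899 to 18177397, plus strand), which removes ISG15 and also shuts off signalling at IFNAR2, was at 34.2, 32.6 and 34.1 TPM against 14.9, 15.2 and 13.9 TPM. This was a log2 fold change of 1.09 (SE 0.0550, edgeR adjusted p = 3.77e-05), with more than a doubling in every shGOT1 library relative to any shNC library.

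HERC5 and HERC6, adjacent genes on chromosome 4 for HECT-type ligases, differed from each other. HERC6 was at 5.79, 6.80 and 5.78 TPM in shGOT1 and at 2.27, 2.61 and 2.60 TPM in shNC (log2 fold change 1.07, SE 0.139, edgeR adjusted p = 0.00150). HERC5, the main human ligase for ISG15, was at 10.03, 11.4 and 11.1 against 10.8, 9 and 9.99 TPM, with overlapping groups (0.02, edgeR adjusted p = 0.846). The ratio of HERC6 to HERC5 TPM was 0.521 to 0.597 in shGOT1 and 0.211 to 0.291 in shNC, a pair chosen after its values were seen and not tested. TRIM25, a ligase that acts on RIG-I, was at 63.6, 64.6 and 61.7 against 55.3, 57.1 and 65.3 TPM and did not pass (-0.01, edgeR adjusted p = 0.937). Its sign turned under several settings, among them log2(TPM + 1) with 0.10.

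Genes of membrane-acting factors were among the most abundant of the list. BST2, which encodes the tetherin that holds budding virions at the cell surface, had the highest level in every library, with 688, 722 and 711 TPM in shGOT1 and 488, 475 and 495 TPM in shNC (log2 fold change 0.43, SE 0.0289, edgeR adjusted p = 0.000106). IFITM3, which blocks fusion of viruses in endosomes, was at 221, 222 and 217 against 158, 156 and 154 TPM (0.39, edgeR adjusted p = 0.000249). IFITM1 and IFITM2 did not pass. IFITM1 was at 249, 195 and 247 against 159, 154 and 92.3 TPM (0.69, SE 0.249, edgeR adjusted p = 0.0654), and its shNC replicate 3 was far below the other two. It passed without that library (0.45, edgeR adjusted p = 0.0353), with DESeq2 (adjusted p = 0.00642) and with limma on unscaled TPM or FPKM (0.0326 to 0.0388). IFITM2 was at 185, 176 and 225 against 224, 174 and 173 TPM (-0.03, edgeR adjusted p = 0.766; 0.04 on log2(TPM + 1)). IFITM1 and IFITM2 share an interval in the table and are close paralogs of IFITM3, so the split of reads between them is uncertain. The scramblase gene PLSCR1 rose (0.45).

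**Figure D2:**
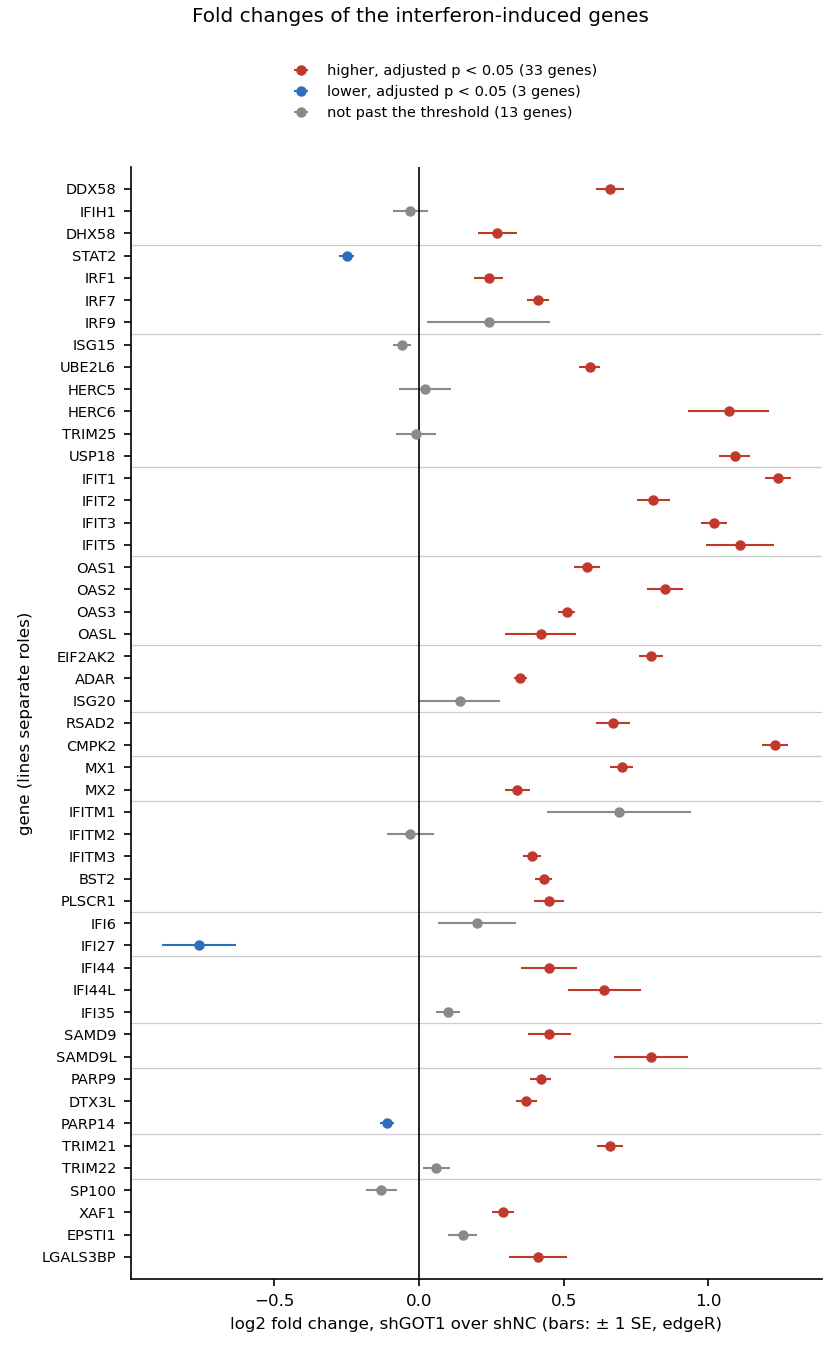
Log2 fold change of each of the 49 genes, shGOT1 over shNC, with its standard error, grouped by role as in the heat map. Red points are the 33 genes called higher, blue points the 3 called lower (STAT2, IFI27, PARP14) and grey points the 13 that did not pass; the points of the IFIT family lie between 0.81 and 1.24.

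IFI27 went against most of the list. IFI27 (ENSG00000165949, chromosome 14, 94104836 to 94116698, plus strand), a small mitochondrial protein strongly induced by interferon in blood cells, was at 38.7, 38.3 and 35.9 TPM in shGOT1 and at 54.8, 64.1 and 51.9 TPM in shNC. All 3 shGOT1 libraries were below all 3 shNC libraries, and the fall was -0.76 on the log2 scale (SE 0.128, edgeR adjusted p = 0.00437). IFI6, of the same small protein family, was at 327, 333 and 323 against 327, 232 and 236 TPM. Its shNC replicate 1 lay with the shGOT1 libraries, and the gene did not pass (0.20, SE 0.136, edgeR adjusted p = 0.272) except without that library (0.38, edgeR adjusted p = 0.00121).

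The third gene called lower was PARP14, an ADP-ribosyltransferase, with 33.4, 34.5 and 33.6 TPM in shGOT1 and 35.1, 33.8 and 33.1 TPM in shNC. Its groups overlapped, the fitted change was -0.11 on the log2 scale (SE 0.0249, edgeR adjusted p = 0.0151), and the call was lost with the replicate block (0.0534) and with limma on every TPM and FPKM scale (0.105 to 0.931). PARP9 and DTX3L, which encode the partners of an ADP-ribosyltransferase and ubiquitin ligase complex and are read outward from neighbouring starts on chromosome 3, both rose (0.42 and 0.37). They overlap each other at those starts in the table, and PARP14 lies close by on the same arm.

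Of the remaining genes, IFI44 (0.45) and IFI44L (0.64), neighbours on chromosome 1, rose, though IFI44L was the least abundant gene of the list with 2.89 to 3.58 TPM in shGOT1 and 1.92 to 2.74 TPM in shNC. The IFI44L call was lost with limma on log2(FPKM + 1) (adjusted p = 0.0550) and with TPM rescaled by median of ratios (0.0864). SAMD9 (0.45) and SAMD9L (0.80), adjacent growth-restraining genes on chromosome 7, rose, as did TRIM21, a cytosolic antibody receptor (0.66), and the apoptosis-linked XAF1 (0.29). LGALS3BP, a secreted glycoprotein gene, was at 17.2, 16.95 and 12.5 against 9.16, 8.91 and 10.8 TPM (0.41, edgeR adjusted p = 0.0177), and did not pass in 4 of the 6 fits without 1 library (without shGOT1 replicate 1 or 2, or shNC replicate 1 or 2; adjusted p = 0.0559 to 0.0588) and with the replicate block (0.0621). IFI35 (0.10), TRIM22 (0.06), SP100 (-0.13) and EPSTI1 (0.15) did not pass. With limma on unscaled TPM, IFI35 (adjusted p = 0.00656 to 0.00702), EPSTI1 (0.0155 to 0.0174) and TRIM22 (0.0421 to 0.0424) did. TRIM22 overlaps TRIM5 and OR56B1 in the table. Of the 38 genes that overlap no other gene in the table, 26 rose, 3 fell and 9 did not pass, with the same median of 0.42.

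The receptors and kinases upstream ran mostly the other way. Of 9 listed genes for interferon receptors and their kinases, 8 were tested. Of these 7 fell (87.5%, beside 22.8% of all genes tested) and IL10RB did not pass (median log2 fold change -0.34). IFNAR2 (ENSG00000159110, chromosome 21, 33229901 to 33265675, plus strand) was at 42.7, 43.7 and 41.8 TPM in shGOT1 and at 61.0, 57.2 and 58.5 TPM in shNC (-0.65, SE 0.0403, edgeR adjusted p = 8.26e-05). IFNAR1 was at 23.0, 21.3 and 22.8 against 27.0, 28.1 and 26.4 TPM (-0.38, edgeR adjusted p = 0.000981). Transcripts of both chains of the receptor were thus lower in every shGOT1 library than in any shNC library. TYK2 fell from 169 ± 0.949 to 130.1 ± 2.498 TPM (-0.47, edgeR adjusted p = 0.000658), and JAK1 from 15.5 ± 0.688 to 13.8 ± 0.733 TPM (-0.27, edgeR adjusted p = 0.0105), which did not pass with limma on unscaled TPM or FPKM (0.0595 to 0.109). JAK1 overlaps RAVER2 in the table, and IFNAR2 an unnamed gene. The genes for the chains of the interferon gamma receptor, IFNGR1 (-0.76) and IFNGR2 (-0.30), also fell. JAK2 was called lower (-0.17), though its TPM values overlapped between the groups.

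**Figure D3:**
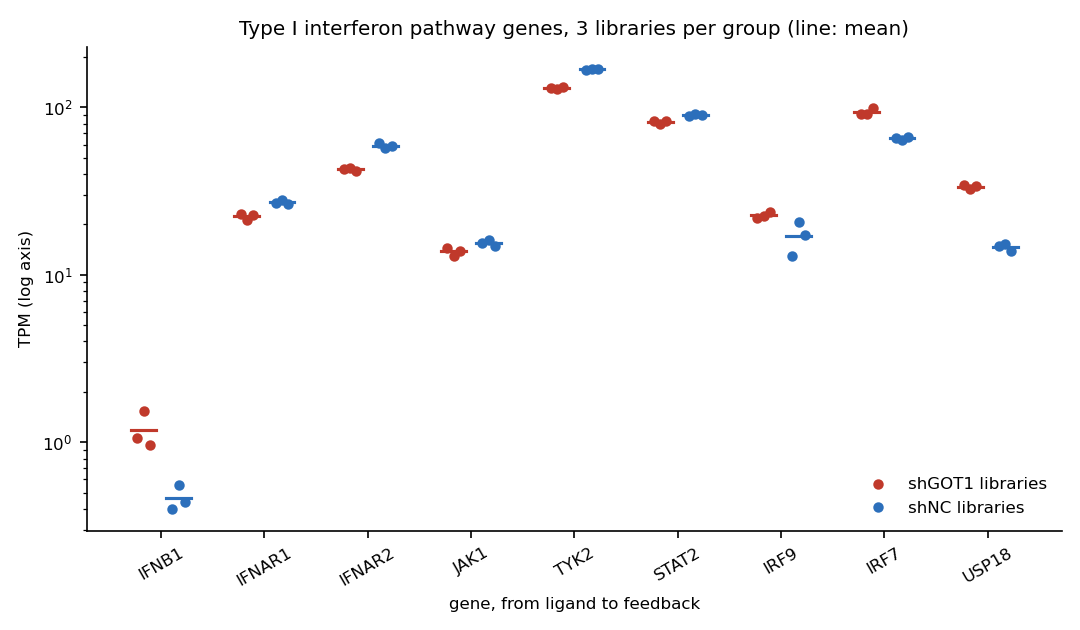
TPM (log axis) of genes of the type I interferon pathway, from the ligand IFNB1 over the receptor chains and kinases to the transcription factors and the feedback gene USP18, with 3 shGOT1 libraries (red) and 3 shNC libraries (blue) per gene and a line at each mean. IFNAR1, IFNAR2, JAK1, TYK2 and STAT2 are lower in shGOT1, while IFNB1, IRF7 and USP18 are higher.

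Transcripts of the interferons themselves were scarce. Of 17 listed type I interferon genes 14 had no count in any library, where 3 counts, the limit that a count of 0 allows, are 0.0766 to 0.114 CPM, that is counts divided by library size. IFNB1 (ENSG00000171855, chromosome 9, 21077105 to 21077963, minus strand), which encodes interferon beta, was the only tested one, with counts of 14, 23 and 18 in shGOT1 and of 5, 8 and 6 in shNC. These are 1.06, 1.53 and 0.957 TPM against 0.401, 0.558 and 0.438 TPM, and the groups did not overlap. The fitted rise was 1.25 on the log2 scale (SE 0.344, edgeR adjusted p = 0.0274). The call was lost with DESeq2 (adjusted p = 0.101), with the replicate block (0.0527) and without any 1 of 4 libraries (0.0581 to 0.0869; shGOT1 replicate 1 or 2, shNC replicate 1 or 3). IFNW1 had 2 counts in shNC replicate 2 and IFNA21 had 2 counts in shNC replicate 1. Of the interferons of other types IFNL1 alone had counts, 3, 6 and 4 in shGOT1 and 4, 0 and 0 in shNC. Interferon alpha genes are near-identical in sequence, so reads could be split between them.

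Of 22 listed genes that sense nucleic acids upstream of interferon, 21 were tested. There, 5 fell and 2 rose, and 14 did not pass (median log2 fold change -0.07). The share called lower, 23.8%, was near the 22.8% of all genes tested, and 9.52% were called higher, beside 21.9%. STING1, the adaptor of cytosolic DNA sensing, rose from 216 ± 8.94 to 287 ± 10.2 TPM (0.27, edgeR adjusted p = 0.000359), and IKBKE, a kinase that acts on IRF3 and IRF7, rose by 0.33. The DNA sensor gene CGAS (-0.01), the RIG-I adaptor gene MAVS (-0.09) and IRF3 (-0.14) did not pass, and each had a small positive value on log2(TPM + 1) (0.10, 0.02 and 0.01). TLR8, an endosomal receptor for single-stranded RNA, fell by 3.46 on the log2 scale, from 6.54 ± 0.472 to 0.672 ± 0.138 TPM (edgeR adjusted p = 6.97e-06), TLR7 fell (-1.05), and the factor IRF5 (-0.56) and the adaptor TICAM1 (-0.36) fell too.

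Among 17 tested negative regulators and nucleic acid clearing enzymes 5 rose, 4 fell and 8 did not pass (median log2 fold change -0.09). These shares, 29.4% higher and 23.5% lower, were near those of all genes tested (21.9% and 22.8%). SOCS1, a feedback inhibitor of the kinases, was at 9.27, 7.53 and 6.63 TPM in shGOT1 and at 5.39, 5.39 and 6.53 TPM in shNC and did not pass (0.33, edgeR adjusted p = 0.152); it overlaps RMI2 in the table. The lysosomal nuclease DNASE2 fell from 47 ± 1.504 to 25 ± 0.357 TPM (-1.03, edgeR adjusted p = 2.36e-05), and SAMHD1, which depletes nucleotides, fell (-0.25). RNASEH2C, a subunit of the enzyme that removes RNA from RNA-DNA hybrids, rose (0.42). The repressor gene IRF2 fell (-0.26, edgeR adjusted p = 0.0212), a call lost without any 1 of 4 libraries (0.0509 to 0.0613; shGOT1 replicate 2 or 3, shNC replicate 1 or 2) and with limma on unscaled TPM or FPKM (0.0520 to 0.112).

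Of 40 further genes known to be induced by type I interferon, all were tested. Of these 17 rose, 0 fell and 23 were not called (median log2 fold change 0.13). The share called higher was 42.5%, beside 21.9% of all genes tested, and the share called lower was 0%, beside 22.8%. The share called higher was thus smaller than among the 49 genes, and the difference between the lists was not tested. RTP4, a receptor transporter that restrains RNA viruses, rose from 16.8 ± 0.588 to 32.7 ± 1.75 TPM (0.86, edgeR adjusted p = 0.000147), the death ligand TNFSF10 from 28.7 ± 0.772 to 52.6 ± 2.10 TPM (0.80), and the cytidine deaminase gene APOBEC3F from 4.47 ± 0.269 to 8.29 ± 1.29 TPM (0.74). LAMP3 had the largest fold change (2.23) with counts of 19, 21 and 30 against 0, 4 and 8, and its call (edgeR adjusted p = 0.0351) was lost without the low count filter (0.0542), with the replicate block (0.0802) and without any 1 of 4 libraries (0.0799 to 0.0971; each shGOT1 library and shNC replicate 2).

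Genes known mainly as interferon gamma targets rose more often than they fell. Of 16 tested, 9 rose, 2 fell and 5 did not pass (median log2 fold change 0.29). The shares were 56.2% higher and 12.5% lower, beside 21.9% and 22.8% of all genes tested. The peptide transporter subunit TAP2 rose by 0.62 on the log2 scale, from 55.6 ± 0.844 to 94.7 ± 3.47 TPM (edgeR adjusted p = 1.11e-05), NLRC5, the activator of class I genes, rose (0.56), and the guanylate-binding protein gene GBP3 rose (0.77; with TPM rescaled by median of ratios limma gave an adjusted p of 0.0727). CIITA, the activator of class II genes, fell from 2.12 ± 0.133 to 1.203 ± 0.0235 TPM, a log2 fold change of -1.25 with an SE of 0.206 (edgeR adjusted p = 0.00384). It overlaps DEXI in the table.

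The 49 genes lie on 17 chromosomes, mostly among genes whose median change was near 0. Each gene was set beside the 10 nearest tested genes on either side, other members left out (4 genes near a chromosome end had fewer). The log2 fold change was above the median of the neighbours for 42 of 49 genes, all 33 called higher among them. Of those 33, 31 were above the neighbours' upper quartile. A gene called higher has a positive change, so beside neighbours near 0 the counts among the 33 were largely set by the call. The share of all genes tested that lie above their neighbours was not computed. The neighbours' medians lay between -0.21 and 0.18 for all genes except ISG15 and IFI6. For IFIT1 the neighbours' median was 0.01 and for CMPK2 it was 0.06.

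ISG15 and IFI6 both lie on the short arm of chromosome 1, among genes that fell. The 14 neighbours of ISG15 had a median log2 fold change of -0.66, with 11 of them called lower and 1 higher. The 20 neighbours of IFI6 had a median of -0.64, with 16 called lower and 1 higher. ISG15 stood 0.60 and IFI6 0.85 above these medians on the log2 scale, although neither passed the test against shNC. No copy number was measured here, and the part of the surrounding fall in the levels of both genes was not tested.

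**Figure D4:**
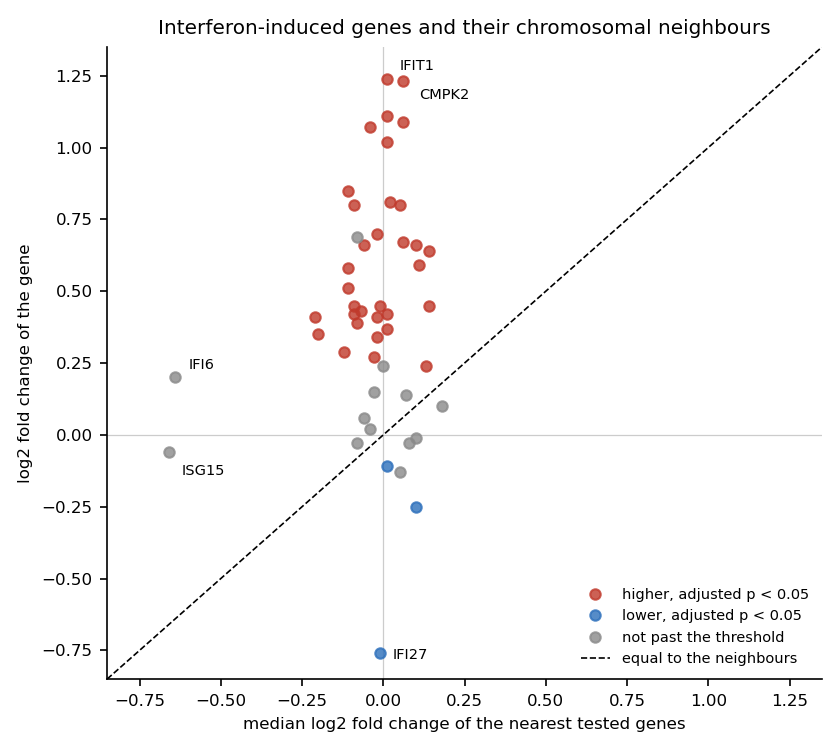
Log2 fold change of each of the 49 genes (vertical) against the median of its nearest tested neighbours on the chromosome (horizontal), coloured by the call, with a dashed line where both are equal. Most points form a column near 0 on the horizontal axis, whereas ISG15 and IFI6 lie at neighbour medians of -0.66 and -0.64.

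Genes with and genes without a match to GAAANNGAAA in the promoter window both rose. Of the 24 genes with a match 15 rose, 2 fell and 7 did not pass, with a median log2 fold change of 0.44. Of the 16 without a match 11 rose, 1 fell and 4 did not pass, with a median of 0.39. Among these, the windows of DDX58, OAS1, RSAD2 and XAF1, which rose, hold the closer spacing that this pattern does not find. The windows of TRIM25 and IFI35, which did not pass, hold it too. Some windows, placed by the RefSeq start, do not reach the start of the gene in the deposited table. Without a match these are CMPK2, PARP9, UBE2L6, XAF1 and SP100. With a match they are ISG15, ISG20, IFITM1, IFITM3, PLSCR1, IFI27 and IFI44L. The split by this pattern therefore does not separate genes with an ISRE from genes without one. Among genes with 2 matches both directions occurred. In the stretches shown above, IFIT1 has matches starting 116 and 103 bases upstream of the RefSeq start and rose. IFI27 has matches starting 108 and 95 bases upstream and fell. ISG15 has overlapping matches starting 113 and 107 bases upstream, and IFI6 has 3 matches starting 156, 115 and 93 bases upstream, and neither passed. A GAS match lies between the matches of IFI27 and overlaps both. Genes with a GAS match had a median log2 fold change of 0.24 (10 genes, 4 higher and 2 lower) and those without one 0.45 (30 genes, 22 higher and 1 lower). No test was made of these counts, and a match of letters does not show that a factor binds there.

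**Figure D5:**
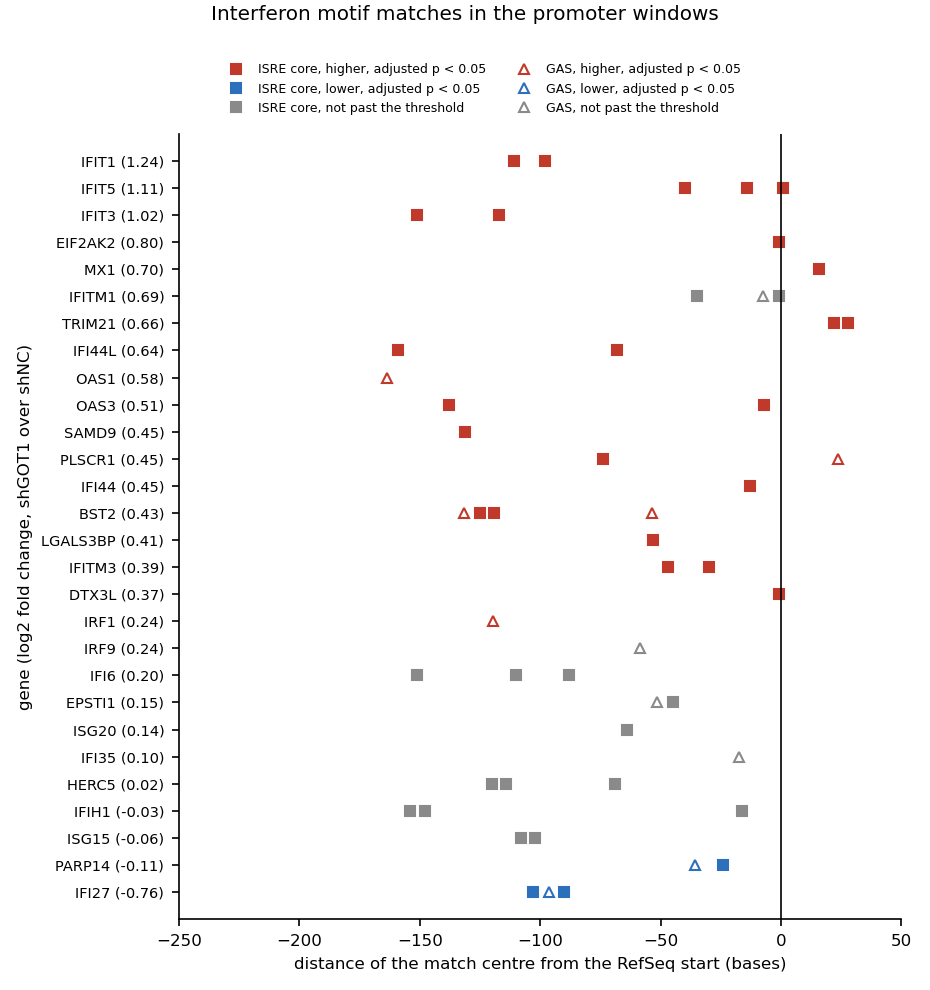
Position of ISRE core matches (squares) and GAS matches (open triangles) relative to the RefSeq start, in bases, for the genes with at least 1 match (red higher, blue lower, grey not past the threshold), ordered by log2 fold change (in brackets). Matches lie at similar distances in genes that rose, such as IFIT1, in IFI27, which fell, and in ISG15, which did not pass.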

How the data were processed

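Reads were processed by the submitters, and the deposited table gives counts, TPM and FPKM per gene and library. The tools were StringTie, DESeq2, Trimmomatic and FastQC, per the submitters' processing notes, with no versions stated. Not given in the sources used here were the aligner, build and strand setting. The deposited counts are whole numbers and not normalized, and since StringTie derives counts from coverage they need not equal reads. The deposited TPM and FPKM values are scaled by the authors to gene length and depth. All 49 genes are in GENCODE release 29 (GRCh38), 37 with identical coordinates, and coordinates are those of the table.

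Columns were assigned by the library names in the labels. The main test was edgeR 4.0.16 in R 4.3.3 (filterByExpr, TMM, glmQLFit, glmQLFTest, 2-sided, Benjamini-Hochberg threshold 0.05) on all 6 libraries without covariates. The SE is the log2 fold change divided by the square root of F. The labels call the libraries biological replicates without saying whether they are separate cultures, so p-values reflect only the spread among these libraries, which may be technical. The steps were tested on simulated counts. Members and lists were chosen with earlier results of these data known. All 49 members are named, with up to 4 called genes per other list and fixed pathway genes; JAK2 and the paired ratios were added after seeing values. Some genes that this rule takes are left out and not reported here. Alternatives were DESeq2 1.42.0, limma 3.58.1 on log2 TPM or FPKM with pseudocounts of 0.1, 1 or 5, other scalings and filters, the replicate block and leaving out each library. Counting limits cover counting error only.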

Additional observations from a re-analysis of the deposited data

How the results depend on the processing

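Of the 36 called members, 28 rose and 2 (STAT2 and IFI27) fell with each of the 16 alternatives that gave a value for them, and 6 lost the call under at least 1 of them (DHX58, IRF1, OASL, IFI44L, LGALS3BP and PARP14). No called member changed direction. The number of members called higher ranged from 30 to 36 over the alternatives and from 31 to 33 when 1 library was left out, and the number called lower was 2 or 3. Over all genes the calls ranged from 2402 to 2592 higher and from 2706 to 2767 lower when 1 library was left out. Fewer genes were called lower with limma on log2(TPM + 1) (1939), log2(TPM + 0.1) (1931) and log2(TPM + 5) (1937), against 3126 in the count fit. On these scales 66.4%, 66.5% and 66.4% of calls were higher, on log2(FPKM + 1) 60.5%, 48.99% in the count fit and 48.97% after median-of-ratios scaling. The median of all genes tested moved to 0.11 on log2(TPM + 0.1), and the members' median to 0.53.

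The sign turned for some genes that had not passed. On log2(TPM + 1), log2(TPM + 0.1), log2(TPM + 5) and log2(FPKM + 1), IFIH1 gave 0.08, 0.08, 0.07 and 0.04, ISG15 gave 0.04, 0.04, 0.04 and 0.01, TRIM25 gave 0.10, 0.10, 0.09 and 0.06, IFITM2 gave 0.04, 0.04, 0.04 and 0.0048, and CGAS gave 0.10, 0.10, 0.09 and 0.06. On the 3 TPM scales MAVS gave 0.02, 0.02 and 0.01 and IRF3 gave 0.01 each time. With a mean of at least 5 TPM, TRIM25 gave 0.01 and CGAS 0.0016. When 1 library was left out, HERC5 ranged from -0.04 to 0.09, TRIM25 from -0.06 to 0.07, IFITM2 from -0.10 to 0.04 and CGAS from -0.05 to 0.02. The cause was not tested.

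With the replicate number as a block (replicate block), 31 members were called higher and 2 lower, and over all genes 2497 and 2725. Same-numbered libraries of the groups did not deviate together (correlations of 0.0296, 0.0384 and 0.00138), so the numbers were not taken as pairs; shGOT1 replicate 3 correlated best with another number. Depth limits the values of genes with few counts, such as IFNB1 with 5 to 23 counts per library. IFI35 also gained the call with a mean of at least 5 TPM (adjusted p = 0.0492), without shNC replicate 2 (0.0469) and on log2(FPKM + 1) (0.0154), and EPSTI1 with a mean of at least 5 TPM (0.0371) and on log2(FPKM + 1) (0.0275).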

Other observations

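The genes around IFNB1 on chromosome 9 had levels that differ sharply within a short distance, chosen for description after the values were seen. FOCAD, on the side of the chromosome end, was at 12.7 ± 1.46 TPM in shGOT1 and 14.4 ± 1.89 TPM in shNC (SD, n = 3 per group). KLHL9, which lies inside the interferon cluster from 21329671 to 21335380, had counts of 2, 2 and 0 in shGOT1 and of 36, 49 and 67 in shNC. Beyond the cluster MTAP had counts of 0, 0 and 4 against 44, 63 and 52, and CDKN2A of 2, 2 and 10 against 159, 282 and 225. IFNB1, which lies between FOCAD and KLHL9, had more counts in shGOT1 than in shNC. The few counts of IFNW1 and IFNA21, between IFNB1 and KLHL9, came from shNC libraries. The state of the DNA at this locus was not measured. Whether this difference between the groups bears on the interferon-induced genes was not tested.

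Levels within gene pairs also shifted, in ratios of TPM that were chosen after the values were seen and not tested. The ratio of IFIT1 to IFIT2 was 1.88 to 2.14 in shGOT1 and 1.40 to 1.61 in shNC. The ratio of CMPK2 to RSAD2 was 4.45 to 5.24 in shGOT1 and 2.86 to 3.56 in shNC. The ratio of PARP9 to PARP14 was 1.22 to 1.29 in shGOT1 and 0.807 to 0.897 in shNC.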
